A study of Mus musculus with 10 samples.

Results

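Transcription factors tied to 1 or a few endocrine lineages, and Prrx2, were compared between intestinal epithelial cells with high and medium Gucy2c reporter activity. The 9 factors, of 54532 genes in the count table, were Pax4, Fev, Lmx1a, Hhex, Etv1, Foxa1, Foxa2, Prox1 and Prrx2. Pax4, Fev, Lmx1a, Hhex, Etv1, Foxa1, Foxa2 and Prox1, the 8 lineage factors, are assigned to 1 or a few endocrine lineages in earlier work on gut and pancreas, whereas Prrx2 was chosen by its measured counts in these libraries, which were above 0 in GUCY2Chi cells only. Its values are therefore given without a test. All 9 passed the expression filter of more than 0.5 cpm (counts scaled to library size) in at least 3 libraries, as did 15703 genes in all. Lmx1a, Hhex, Prox1 and Prrx2 would not have passed it on their GUCY2Cmed libraries. For these 4, being tested depended on their GUCY2Chi levels.

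The cells came from the small intestine of 5 litter-matched Gucy2c-GFP mice of the outbred CD1 (ICR) stock, 10 weeks old, with no treatment named in the labels. All mice carried a bacterial artificial chromosome in which the Gucy2c promoter drives GFP, so both groups carry the transgene and differ in fluorescence, not in genotype. Gucy2c encodes guanylyl cyclase C, the receptor for guanylin and uroguanylin. From each mouse, 20000 live single cells with high GFP (GUCY2Chi) and 20000 with medium GFP (GUCY2Cmed, also called Lo in the labels) gave 1 RNA-seq library each, 10 in all, numbered 2, 7, 12, 14 and 15 in both groups. The gate was set on GFP and not on an endocrine marker, and the study takes GUCY2Chi cells as neuropod cells, enteroendocrine cells that contact neurons, and GUCY2Cmed cells as bulk epithelium. Counts on genes ranged from 13090212 to 13520800 per library (median 13344439) in GUCY2Chi cells and from 10903958 to 15307932 (median 14236679) in GUCY2Cmed cells.

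Enteroendocrine cells descend from crypt progenitors that transiently express the bHLH factor Neurog3, and later factors such as Neurod1, Insm1, Pax6 and Isl1 maintain or split the lineage into cells that make serotonin, somatostatin, GLP-1, GIP, CCK or ghrelin. Subtype factors act in that second phase, and most of them also have well known duties in other tissues, for example Fev in serotonin neurons of the brainstem, Hhex in liver and Prox1 in lymphatic endothelium. A change in bulk RNA does not separate a larger share of cells of 1 type from more RNA in each cell, and in these pools of sorted cells fewer cells of a type and less RNA per cell cannot be told apart.

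Each of the 8 lineage factors was higher in GUCY2Chi than in GUCY2Cmed cells by edgeR's quasi-likelihood test at a Benjamini-Hochberg adjusted p under 0.01. All 8 were also higher by limma-voom and by DESeq2. This leaves 0 of 8 lower by any of them or at an unadjusted edgeR p under 0.05, which adds nothing further. Of all 15703 genes tested, 13.9% were higher and 8.79% were lower by the edgeR rule. The log2 fold changes of these factors ran from 3.25 for Foxa2 to 8.12 for Lmx1a, with a median of 4.82 against 0.09 over all genes tested. For each of the 8 lineage factors the lowest GUCY2Chi library lay above the highest GUCY2Cmed library, which held for 16.7% of genes tested. Prrx2 showed the same, but this was fixed by the way it was chosen. The 9 factors were collected with earlier results of the same data known, and 4 of them passed the filter only with their GUCY2Chi libraries. The counts therefore describe the factors and are not a test of the group. The plot of all 90 values shows the factors in both groups.

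**Figure D1:**
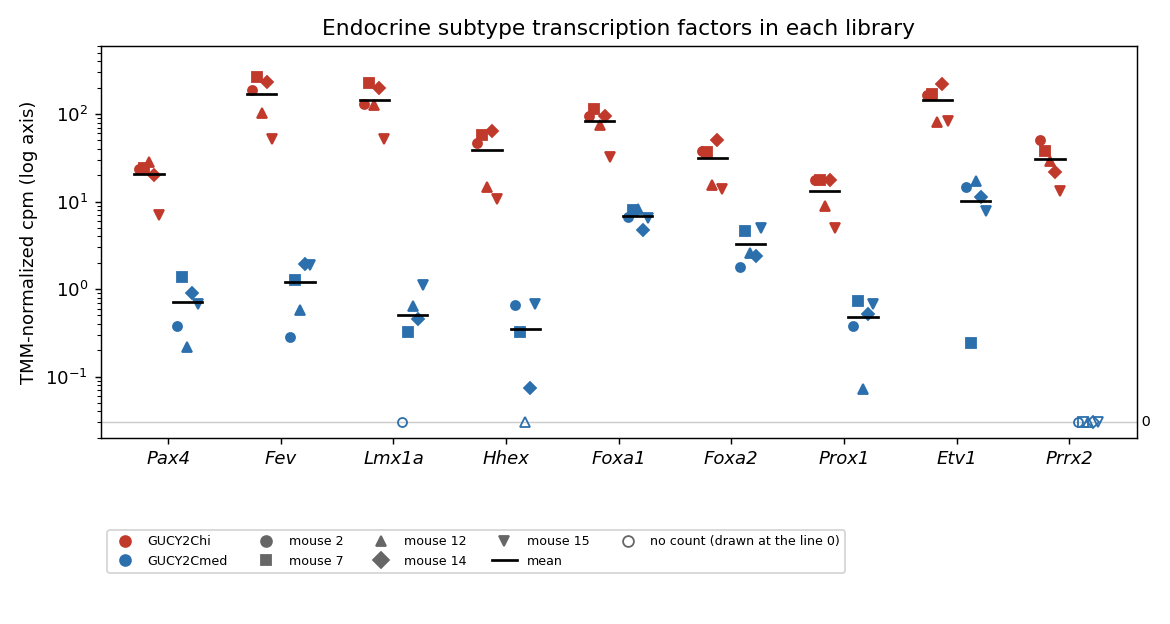
TMM-normalized cpm on a log axis for the 9 factors in the 5 GUCY2Chi and 5 GUCY2Cmed libraries, with 1 symbol per mouse, a bar at each group mean, and open symbols on the line marked 0 for libraries without a count. Every GUCY2Chi library lies above every GUCY2Cmed library of the same factor, and the GUCY2Cmed library of mouse 7 stands apart for Etv1 at 0.241 cpm.

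Since these factors were high in the same libraries, the sequence ahead of their transcription starts was read for 4 of them, chosen to show the factor with the most RNA per length (Fev), the one with the largest fold change (Lmx1a), a forkhead factor whose own window holds a forkhead motif (Foxa1), and the factor absent from GUCY2Cmed counts (Prrx2). The windows are the 250 bases before a RefSeq start on GRCm38.p6, printed 5′ to 3′ on the gene's strand, with capitals on matches to CANNTG (the E-box read by bHLH factors), TGTTTAC (a forkhead motif) or TAATTA (a homeodomain motif) on either strand. They lie at chr1:74885409-74885658 on the minus strand (Fev), chr1:167689308-167689557 on the plus strand (Lmx1a), chr12:57546112-57546361 on the minus strand (Foxa1) and chr2:30845117-30845366 on the plus strand (Prrx2).
Fev: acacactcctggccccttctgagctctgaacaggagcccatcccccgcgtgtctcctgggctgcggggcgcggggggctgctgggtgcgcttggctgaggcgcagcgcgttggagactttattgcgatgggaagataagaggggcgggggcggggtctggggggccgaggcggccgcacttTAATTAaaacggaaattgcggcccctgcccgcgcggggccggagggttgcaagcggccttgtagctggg
Lmx1a: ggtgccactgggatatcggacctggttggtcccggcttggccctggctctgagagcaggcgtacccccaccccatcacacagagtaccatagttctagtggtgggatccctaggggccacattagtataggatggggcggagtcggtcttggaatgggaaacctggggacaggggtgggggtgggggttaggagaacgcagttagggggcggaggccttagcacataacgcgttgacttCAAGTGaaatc
Foxa1: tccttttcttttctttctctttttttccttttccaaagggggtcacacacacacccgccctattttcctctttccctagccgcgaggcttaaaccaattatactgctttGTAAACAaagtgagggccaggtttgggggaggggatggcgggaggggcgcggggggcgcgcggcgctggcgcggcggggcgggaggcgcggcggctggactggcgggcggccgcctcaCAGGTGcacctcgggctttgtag
Prrx2: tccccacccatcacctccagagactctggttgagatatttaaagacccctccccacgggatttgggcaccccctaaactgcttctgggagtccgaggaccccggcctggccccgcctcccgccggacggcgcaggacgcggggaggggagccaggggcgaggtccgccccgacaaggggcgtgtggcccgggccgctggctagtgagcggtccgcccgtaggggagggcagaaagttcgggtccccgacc
The Fev window holds TAATTA 69 bases before the start and no E-box, and the Lmx1a window holds an E-box 11 bases before it. In the Foxa1 window the forkhead motif lies 141 and an E-box 23 bases before the start, with the forkhead motif on the opposite strand as GTAAACA. The Prrx2 window holds none of these motifs, and its RefSeq start lies 10395 bases inside the gene as the count table lists it. The RefSeq table gave 12 windows for 8 of the 9 factors and none for Pax4. CANNTG occurred in 5 of the 12 windows against 66.2% of all 32851 promoter windows of this length, and in 11 of 16 windows of other endocrine factors. TGTTTAC occurred in 1 of 12 against 3.17% of all windows, TAATTA in 1 of 12 against 4.84%, TGTTTGC (a second forkhead motif) in 1 of 12, in front of Prox1, against 4.30%, CAGATG (an E-box within CANNTG) in 2 of 12 against 14.4%, and TATAAA in 3 of 12 against 12.4%. For 3 of the 12 starts, both of Prox1 and 1 of Foxa2, the first transcribed bases were not found in a transcript of that gene. In the other 9 windows CANNTG occurred in 3, CAGATG in 1, TATAAA in 1 and TGTTTGC in 0. The windows of the factors had a median GC content of 60.6%, and those of all promoters 52.4%. A match says only that these letters are in the window.

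Fev and Lmx1a, tied to serotonin cells, had the highest levels of the 9 by cpm per kilobase, though Lmx1a had place 4 by FPKM. Fev (chr1:74881509-74885419, minus strand), an ETS factor that sets the identity of serotonin neurons and marks endocrine precursors of gut and islet, measured 188, 265, 102.5, 231 and 52.3 cpm in the GUCY2Chi libraries of mice 2, 7, 12, 14 and 15. In GUCY2Cmed libraries of the same mice it measured 0.281, 1.28, 0.576, 1.95 and 1.88 cpm. The groups were far apart, and the lowest GUCY2Chi value, in mouse 15, was still 27.8-fold that mouse's GUCY2Cmed value. The means were 168 ± 88.5 and 1.20 ± 0.754 cpm (SD, n = 5 each), a log2 fold change of 7.11 (SE 0.62, edgeR adjusted p 1.776e-05).

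Lmx1a (chr1:167689237-167848741, plus strand), a LIM homeodomain factor that promotes Tph1 expression in enterochromaffin cells, measured 129, 224, 126, 197 and 51.7 cpm in GUCY2Chi libraries and 0, 0.321, 0.648, 0.451 and 1.11 cpm in GUCY2Cmed libraries. The GUCY2Cmed library of mouse 2 had no Lmx1a count, and the highest GUCY2Cmed level was in mouse 15, the mouse with the lowest GUCY2Chi level. Mean levels were 146 ± 67.6 and 0.507 ± 0.413 cpm (SD, n = 5 each). The log2 fold change of 8.12 (SE 0.64, edgeR adjusted p 8.671e-06) was the largest of the 8. This size rests on 32 GUCY2Cmed counts in all, and Lmx1a passed the filter only with its GUCY2Chi libraries. In GUCY2Chi libraries the Fev cpm was between 0.811 and 1.46 times the Lmx1a cpm, and only in mouse 12 was Lmx1a the higher in cpm.

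Pax4 (chr6:28442334-28449353, minus strand), a paired homeodomain repressor required for beta cells of the islet and for serotonin and somatostatin cells of the gut, was present at a lower level. Its GUCY2Chi libraries measured 23.7, 24.0, 28.0, 20.1 and 6.99 cpm and its GUCY2Cmed libraries 0.374, 1.36, 0.216, 0.901 and 0.685 cpm. Pax4 was the one lineage factor whose highest GUCY2Chi library was that of mouse 12. The means were 20.6 ± 8.09 and 0.708 ± 0.453 cpm (SD, n = 5 each), and Pax4 rose by 4.84 on the log2 scale (SE 0.52, edgeR adjusted p 5.71e-05). The cpm ratio of Pax4 to Hhex in GUCY2Chi cells was between 0.314 and 0.653 in mice 2, 7, 14 and 15 and 1.93 in mouse 12.

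Genes of serotonin handling did not all move with these factors. Tph1, which encodes the first enzyme of serotonin synthesis outside the brain, measured 2636 ± 1148 cpm in GUCY2Chi and 3.98 ± 0.681 cpm in GUCY2Cmed libraries (log2 fold change 9.37, edgeR adjusted p 1.522e-06). Of 9 further serotonin genes, several of which depend on Fev in brain, 7 were tested, and 3 of these were higher, 2 lower and 2 not past the threshold. Slc18a1 and Slc18a2, the vesicular monoamine transporters, rose by 4.76 and 4.92 on the log2 scale, and Gch1, needed for the cofactor of Tph1, rose by 3.59. The serotonin uptake transporter gene Slc6a4 fell by 2.18 (edgeR adjusted p 0.004067), from 163 ± 26.0 to 36.1 ± 27.6 cpm, and the monoamine oxidase gene Maob fell by 2.03. Enterocytes also use Slc6a4 to take up serotonin, and its call was lost without the GUCY2Chi library of mouse 2 or 7 (edgeR adjusted p 0.0145 and 0.0126) or the GUCY2Cmed library of mouse 2, 12 or 15 (0.0112, 0.0113 and 0.0151). Ddc (log2 fold change 1.17, edgeR adjusted p 0.0146) and Slc22a3 (2.23, edgeR adjusted p 0.0261) missed the threshold, Ddc passed it without the GUCY2Chi library of mouse 15 (0.00482) and Slc22a3 without that of mouse 12 (0.00994), and Tph2 and Htr1a did not pass the filter.

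Hhex (chr19:37434810-37440731, plus strand), a homeobox factor required for somatostatin cells in islets, varied most among GUCY2Chi libraries, with a coefficient of variation of 63.6%. It measured 47.3, 57.6, 14.5, 64.1 and 10.7 cpm there and 0.655, 0.321, 0, 0.0751 and 0.685 cpm in GUCY2Cmed libraries. The GUCY2Chi libraries of mice 12 and 15 were well below the other 3, yet all 5 were far above every GUCY2Cmed library. The means of 38.8 ± 24.7 and 0.347 ± 0.318 cpm (SD, n = 5 each) gave a log2 fold change of 6.83 (SE 0.81, edgeR adjusted p 0.0001144). This size rests on 20 GUCY2Cmed counts in all, and Hhex passed the filter only with its GUCY2Chi libraries. Sst, the somatostatin gene, measured 3416 ± 1332 against 30.1 ± 7.99 cpm, and its lowest GUCY2Chi library was also that of mouse 15, at 1212 cpm, whereas mouse 12 had 3192 cpm. Hhex is known in hepatocytes too, and of 8 hepatocyte genes 5 were higher in GUCY2Chi cells, with a summed level of 2049 to 17045 cpm against 10.4 to 75.3 cpm. The 5 were Afp (5570 against 3.54 cpm), Ambp (1140 against 0.563 cpm), Alb (23.3 against 0.212 cpm), Tat (6.38 against 0.210 cpm) and Serpina1a (1.79 against 0 cpm). Fgb was at 0 in every GUCY2Chi library, and the part of hepatocyte RNA in the Hhex result was not tested.

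Foxa1 and Foxa2, forkhead pioneer factors that together support GLP-1 and somatostatin cells and goblet cells in mouse gut, had the smallest fold changes of the 8 and several cpm in most GUCY2Cmed libraries. Foxa1 (chr12:57540628-57546916, minus strand) measured 96.0, 114, 75.2, 96.0 and 32.7 cpm in GUCY2Chi libraries and 6.74, 8.03, 8.28, 4.73 and 6.50 cpm in GUCY2Cmed libraries. The GUCY2Cmed values were close together and the lowest GUCY2Chi value, in mouse 15, was 5.02-fold that mouse's GUCY2Cmed level. The means were 82.8 ± 31.2 and 6.86 ± 1.42 cpm (SD, n = 5 each), and the log2 fold change was 3.59 (SE 0.32, edgeR adjusted p 2.135e-05).

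Foxa2 (chr2:148042877-148046969, minus strand) measured 38.3, 37.3, 15.4, 51.2 and 13.9 cpm in GUCY2Chi libraries and 1.78, 4.66, 2.59, 2.40 and 4.96 cpm in GUCY2Cmed libraries. In mouse 15 the within-mouse fold was 2.79, the smallest of any lineage factor in any mouse. With means of 31.2 ± 16.1 and 3.28 ± 1.43 cpm (SD, n = 5 each), Foxa2 rose by 3.25 on the log2 scale (SE 0.44, edgeR adjusted p 0.0002954). The cpm ratio of Foxa1 to Foxa2 in GUCY2Chi cells ran from 1.88 in mouse 14 to 4.89 in mouse 12. Of 8 goblet cell genes 1 was higher, with sums of 3082 to 23525 cpm in GUCY2Chi and 4883 to 13057 cpm in GUCY2Cmed libraries, and their part in the Foxa1 and Foxa2 result was not tested.

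Of 3 genes known as Foxa2 targets in islets, both subunits of the ATP-sensitive potassium channel were higher in GUCY2Chi cells. Abcc8, the sulfonylurea receptor, rose by 8.36 on the log2 scale and Kcnj11, its pore, by 6.31. Hadh, a mitochondrial fatty acid oxidation enzyme that enterocytes also use, fell by 1.61 (edgeR adjusted p 0.007697), from 1656 ± 333 to 541 ± 320 cpm, and kept its call only without the GUCY2Chi library of mouse 12 or 15, with an edgeR adjusted p of 0.0102 to 0.0296 when any of the other 8 was left out.

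Prox1 (chr1:190118035-190170714, minus strand), a prospero-type homeodomain factor of endocrine precursors, tuft cells and lymphatic endothelium, had the lowest level of the 9 in GUCY2Chi cells. Its GUCY2Chi libraries measured 17.5, 17.8, 9.01, 17.6 and 4.98 cpm and its GUCY2Cmed libraries 0.374, 0.723, 0.0720, 0.526 and 0.685 cpm. Mice 2, 7 and 14 were nearly equal, and mice 12 and 15 were lower. The means of 13.4 ± 5.99 and 0.476 ± 0.265 cpm (SD, n = 5 each) gave a log2 fold change of 4.79 (SE 0.55, edgeR adjusted p 9.119e-05). This size rests on 29 GUCY2Cmed counts in all, and Prox1 passed the filter only with its GUCY2Chi libraries. The antisense genes Gm28172 and Prox1os overlap Prox1, and without stated strand information their reads cannot be told from those of Prox1.

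Markers of other cell types that use Prox1 were set beside it. Of 10 tuft cell genes, 9 were tested and 1 was higher, with sums of 37.9 to 68.9 cpm in GUCY2Chi and 10.7 to 25.3 cpm in GUCY2Cmed libraries. Pou2f3, the tuft cell master factor, averaged 0.563 cpm in GUCY2Chi and 0.883 cpm in GUCY2Cmed libraries, and the part of tuft cell RNA in the Prox1 result was not tested. In the endothelial list the sums were 3.02 to 9.77 cpm against 2.78 to 3.46 cpm, and 2 genes were tested. Pecam1 was higher, at 2.40 against 0.123 cpm, and the lymphatic gene Lyve1 averaged 2.80 and 2.79 cpm, whereas the lymphatic receptor gene Flt4 and the junction gene Cdh5 were at 0 in every GUCY2Chi library. The part of endothelial RNA in the Prox1 result was not tested.

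Etv1 (chr12:38779380-38870484, plus strand), an ETS factor known in enteroendocrine cells, pacemaker cells of the gut wall and layer 5 neurons of cortex, had the largest SD of the 8 in GUCY2Cmed cells. Its GUCY2Chi libraries measured 165, 168, 80.5, 220.2 and 82.5 cpm, and its GUCY2Cmed libraries 14.5, 0.241, 17.3, 11.3 and 7.87 cpm. The GUCY2Cmed library of mouse 7 held 3 counts, whereas the other 4 held 92 to 240. Mean levels were 143 ± 60.4 and 10.2 ± 6.61 cpm (SD, n = 5 each), and Etv1 rose by 3.80 on the log2 scale (SE 0.71, edgeR adjusted p 0.001986). With the mouse as a replicate block its log2 fold change was 4.02 and the edgeR adjusted p of 0.01251 missed the threshold, and limma-voom with the same block gave 0.004332.

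Transcripts of forebrain neurons varied with Etv1 among GUCY2Cmed libraries. Camk2a, the most familiar of them, measured 35.3, 1.04, 43.8, 34.4 and 16.7 cpm in GUCY2Cmed libraries of mice 2, 7, 12, 14 and 15, and 2.02, 30.5, 25.2, 2.54 and 81.8 cpm in GUCY2Chi libraries. The cpm ratio of Etv1 to Camk2a stayed between 0.231 and 0.472 in the 5 GUCY2Cmed libraries and ran from 1.01 to 86.5 in the GUCY2Chi libraries. The summed level of 10 forebrain genes was 13.9 to 678 cpm in GUCY2Cmed and 30.7 to 1216 cpm in GUCY2Chi libraries, and 0 of 10 differed between the groups by edgeR, limma-voom or DESeq2, and 0 of 10 at an unadjusted edgeR p under 0.05. In the GUCY2Chi libraries of mice 2 and 14, where that sum was lowest at 30.7 and 32.8 cpm, Etv1 measured 165 and 220.2 cpm. With the forebrain sum as a covariate in edgeR, the log2 fold change of Etv1 was 4.05 (adjusted p 0.001804). This covariate was chosen after seeing the data and has the same slope in both groups. The part of forebrain RNA in the Etv1 result was not tested. Of 6 genes of pacemaker and muscle cells 2 were tested and Kit was higher, with sums of 7.37 to 24.2 cpm against 3.24 to 7.07 cpm. Ano1, which marks pacemaker cells, averaged 2.20 and 2.41 cpm, the muscle actin gene Acta2 was at or below 0.0936 cpm, and the part of these cells was not tested. The share of 50-base words of the Etv1 transcripts that also occur in the gene Gm5454 was 20.6% (1143 of 5561). The counting may therefore have split reads between Etv1 and Gm5454. Gm5454 held 0 to 22 counts per GUCY2Chi library and 0 in the GUCY2Cmed libraries. The other 8 factors shared no such words with another gene among the transcripts searched, which were those annotated as coding.

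**Figure D2:**
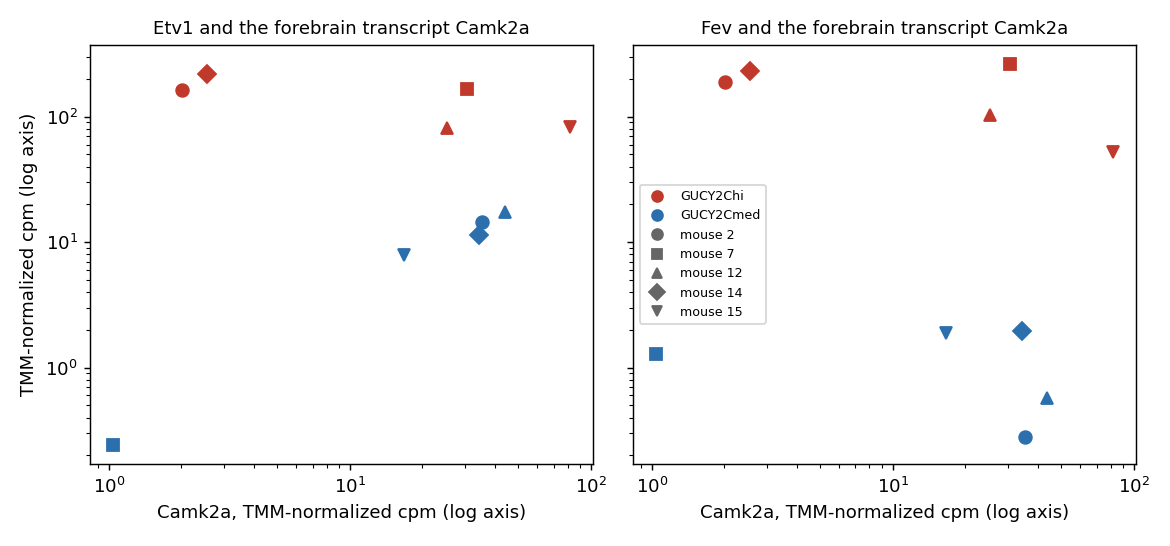
TMM-normalized cpm of Etv1 (left) and Fev (right) against the forebrain neuron transcript Camk2a in the 10 libraries, both axes logarithmic, with colors for the groups and symbols for the mice. The 5 GUCY2Cmed libraries keep an Etv1 to Camk2a ratio between 0.231 and 0.472, whereas Fev stays at or below 1.95 cpm in GUCY2Cmed libraries at any Camk2a level.

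Prrx2 (chr2:30834972-30881251, plus strand), a paired-related homeobox factor best known from limb and craniofacial mesenchyme, was counted 746, 631, 381, 282 and 212 times in GUCY2Chi libraries and not at all in GUCY2Cmed libraries. These counts equal 50.2, 38.0, 28.8, 21.7 and 13.4 cpm in mice 2, 7, 12, 14 and 15, a mean of 30.4 ± 14.3 cpm (SD, n = 5). Set against a floor of 3 counts in each GUCY2Cmed library, which covers counting error only, Prrx2 was at least 124.8-fold higher in GUCY2Chi cells. This difference is the one by which Prrx2 was chosen, so it is given as a description. Among genes tested, 145 had no count in any GUCY2Cmed library, 125 of these had counts in all 5 GUCY2Chi libraries, and Prrx2 had the second highest mean GUCY2Chi cpm, after Cyp2j12 at 39.4 cpm and ahead of the noncoding gene Gm32585 at 14.7 cpm.

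Mesenchymal transcripts were examined beside Prrx2. Of 10 mesenchymal genes 5 were tested and 2 were higher, with sums of 43.3 to 231 cpm in GUCY2Chi and 1.53 to 10.4 cpm in GUCY2Cmed libraries. Vim, the intermediate filament gene, was higher and made up most of that sum with a mean of 124 cpm. The collagen gene Col1a2 was also higher, at 0.315 to 1.41 cpm in GUCY2Chi libraries and 0 in GUCY2Cmed libraries, and Pdgfrb averaged 1.32 against 0.342 cpm without passing the threshold. Col3a1 was at 0 and Col1a1 at 0.126 cpm or less in the GUCY2Chi libraries, and the part of mesenchymal RNA in the Prrx2 counts was not tested. The related gene Prrx1, which shares the mesenchymal expression of Prrx2, measured 1.14, 1.51, 4.16, 0.540 and 6.86 cpm in GUCY2Chi and 5.15, 10.5, 8.43, 6.83 and 9.24 cpm in GUCY2Cmed libraries. Prrx1 had a log2 fold change of -1.49 that missed the threshold (edgeR adjusted p 0.0593). It was called lower without the GUCY2Chi library of mouse 15 (-2.09, edgeR adjusted p 0.009086) and without both libraries of mice 12 and 15 (-2.79, edgeR adjusted p 0.005136).

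The paralogs of the other factors did not all differ in the same way. Of 6 paralogs 5 were tested, with 2 higher and a median log2 fold change of 1.16. The count of lower paralogs was 0 by edgeR, limma-voom and DESeq2, and 1, Prrx1, at an unadjusted edgeR p under 0.05. Etv5, of the same ETS subfamily as Etv1, measured 30.5 ± 17.9 against 2.51 ± 0.614 cpm (log2 fold change 3.60, edgeR adjusted p 0.0001028). Foxa3, the third of the Foxa genes, measured 98.3 ± 31.2 against 34.9 ± 11.5 cpm (1.49, edgeR adjusted p 0.001455, and 0.01222 with the mouse as a replicate block). Prox2 had a log2 fold change of 1.16 (edgeR adjusted p 0.136) and Etv4 of 1.12 (edgeR adjusted p 0.0963), and Lmx1b did not pass the filter.

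Other endocrine factors were counted by the same rule. Of 17 further endocrine factors 16 were tested and 12 were higher, with a median log2 fold change of 5.98 over those tested. For example, Pax6, Rfx6, St18 and Onecut3 stayed at or below 0.432 cpm in the GUCY2Cmed libraries, so being tested depended on their GUCY2Chi levels. The count and the median therefore describe the list and do not test it. By limma-voom 11 were higher, Mnx1 being the one lost, and 0 were lower by edgeR, limma-voom or DESeq2 or at an unadjusted edgeR p under 0.05. Neurod1, which carries the endocrine fate after Neurog3, rose by 8.45, Isl1 by 8.74, Rfx6 by 8.47, Pax6 by 8.09, St18 by 7.03, Nkx2-2 by 6.58, Insm1 by 6.32 and Myt1 by 5.63. Mnx1 rose by 2.84 (edgeR adjusted p 0.002303, and 0.01212 with the mouse as a replicate block), Rfx3 by 2.71 and Sox4 by 2.46. Onecut3 had 483 counts over the GUCY2Chi libraries and 1 over the GUCY2Cmed libraries, a ratio of 407 after scaling (exact 95% interval 72.8 to 16120, counting error only).

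Neurog3, the transient starter of the endocrine program, was not among them. It measured 2.70 ± 0.764 cpm in GUCY2Chi and 2.78 ± 1.25 cpm in GUCY2Cmed libraries (log2 fold change -0.04, edgeR adjusted p 0.954). Neurod2 (0.38), Nkx6-3 (-0.56) and Pdx1 (0.80, edgeR adjusted p 0.0475) also missed the threshold. Pdx1 passed it with the forebrain sum as a covariate (edgeR adjusted p 0.007206), and the count of higher factors was 13 with that covariate and with voomWithQualityWeights. The cpm ratio of Neurod2, which is also a forebrain factor, to Camk2a was 0.133 to 0.231 in GUCY2Cmed and 0.125 to 1.30 in GUCY2Chi libraries. Nkx6-1 was at 0 in all libraries.

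**Figure D3:**
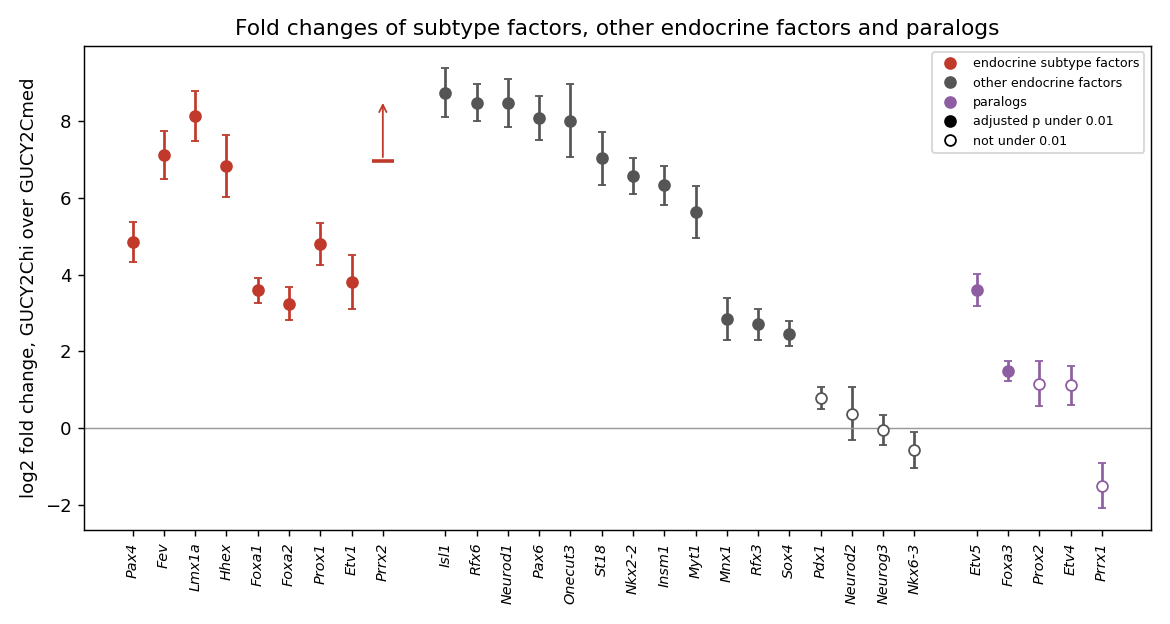
Log2 fold change of GUCY2Chi over GUCY2Cmed cells with its standard error for the 8 lineage factors, the 16 other endocrine factors tested and the 5 paralogs tested, with filled symbols for an edgeR adjusted p under 0.01. Prrx2 is drawn as a lower bound with an arrow, and Neurog3 and Prrx1 lie at -0.04 and -1.49.

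By the family names in the count table, 970 transcription factors were tested, and 13.1% of them were higher and 5.46% lower. Among homeobox genes, the family of Lmx1a, Hhex and Prrx2, 18 of 61 were higher and 1 lower. Of the ETS genes, which include Fev and Etv1, 5 of 20 were higher and 1 lower, and of the forkhead genes 5 of 19 were higher. These counts contain the factors described above.

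Products of the lineages that these factors mark were counted from the same fit. Of 11 hormone and lineage genes 10 were higher, with log2 fold changes from 6.55 for Tac1 to 11.77 for Pyy and a median over the list of 9.07. Gip, Nts and Gcg, which encode the hormones of K, N and L cells, averaged 24060, 16583 and 13968 cpm in GUCY2Chi libraries. Insl5, a hormone of colonic L cells, missed the threshold (edgeR adjusted p 0.01273, and 0.008866 without the GUCY2Chi library of mouse 15) with at most 7.48 cpm in any library.

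Levels were ranked per kilobase of the gene length listed in the table, since cpm alone favors long transcripts. The GUCY2Chi means were 104 ± 54.7 cpm per kilobase for Fev, 42.9 ± 19.9 for Lmx1a, 24.9 ± 9.38 for Foxa1, 20.3 ± 12.9 for Hhex, 15.5 ± 7.29 for Prrx2, 14.2 ± 5.60 for Pax4, 13.2 ± 6.80 for Foxa2, 10.8 ± 4.54 for Etv1 and 1.59 ± 0.714 for Prox1 (SD, n = 5). Fev lay above Lmx1a, Lmx1a above Foxa1, and Etv1 above Prox1 in 5 of 5 mice by cpm per kilobase. The neighbors Hhex and Prrx2 (2 of 5 mice), Prrx2 and Pax4 (3 of 5) and Pax4 and Foxa2 (3 of 5) did not keep their order across mice, and their means differed by less than their SD.

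The deposited FPKM values rest on shorter lengths and change this order, most of all for Etv1. Fev stayed first at 194 ± 112 FPKM and Prox1 last at 3.09 ± 1.47 FPKM, but Etv1 moved from place 8 to place 2, at 65.2 ± 26.7 FPKM. The listed length of Etv1 is 13296 bases and the length implied by its FPKM is 2417 bases, a ratio of 5.50, whereas for the other 8 factors this ratio lay between 1.04 and 2.14. Foxa1 (50.8 FPKM) and Lmx1a (49.2 FPKM) followed in places 3 and 4, and Lmx1a lay above Foxa1 in 2 of 5 mice by FPKM. Prrx2 and Hhex, and Foxa2 and Pax4, also changed places.

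**Figure D4:**
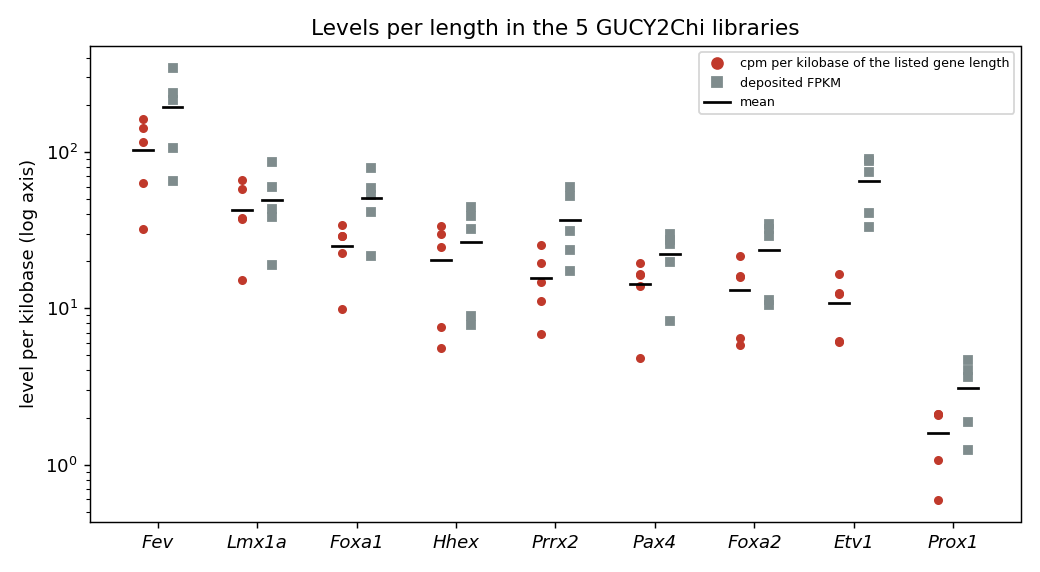
Level per kilobase on a log axis in the 5 GUCY2Chi libraries for each factor, as cpm per kilobase of listed gene length (circles) and as deposited FPKM (squares), with bars at the means. Fev is first and Prox1 last on both scales, and Etv1 has place 8 by cpm per kilobase and place 2 by FPKM.

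Among GUCY2Chi libraries the factors were low together in mouse 15 and split in mouse 12. As a percent of each factor's own GUCY2Chi mean, mouse 15 held between 27.6% for Hhex and 57.7% for Etv1. Mouse 12 held 37.4% for Hhex, 49.3% for Foxa2, 56.3% for Etv1, 61.2% for Fev, 67.4% for Prox1, 86.8% for Lmx1a, 90.8% for Foxa1, 94.8% for Prrx2 and 136% for Pax4. The medians over the 8 lineage factors were 116%, 135%, 64.3%, 136% and 36.4% in mice 2, 7, 12, 14 and 15, and those of the 12 other endocrine factors called higher were 122%, 132%, 63.4%, 139.5% and 40.2%.

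Enterocyte transcripts were higher in the GUCY2Chi libraries of the same mice. The summed level of 12 enterocyte genes was 27831 cpm in mouse 12 and 28558 cpm in mouse 15, against 2735 to 3766 cpm in the other 3 GUCY2Chi libraries and 49778 to 68276 cpm in GUCY2Cmed libraries, and 2 of the 12 were lower in GUCY2Chi cells by the test. Their part in the lower factor levels was not tested. Without the libraries of mice 12 and 15, 7 of the 8 lineage factors were called higher by edgeR, with log2 fold changes from 3.83 for Foxa2 to 9.36 for Lmx1a, and Etv1 (4.41, edgeR adjusted p 0.01098) missed the threshold.

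Set against Neurod1 in the same library, which marks the endocrine cells as a whole, all 9 factors spanned a narrower range. Fev cpm was between 17.6% and 39.2% of Neurod1 cpm, Etv1 between 14.2% and 27.8%, and Prox1 between 1.45% and 2.64%, the last being the narrowest range of the 9 at 1.81-fold. Hhex, at 2.56% to 8.54%, and Prrx2, at 1.80% to 5.64%, had the widest, with ranges of 3.34-fold and 3.13-fold. Pax4, Foxa1, Prox1 and Prrx2 were each lowest relative to Neurod1 in mouse 14, which had the highest Neurod1 level at 1208 cpm.

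**Figure D5:**
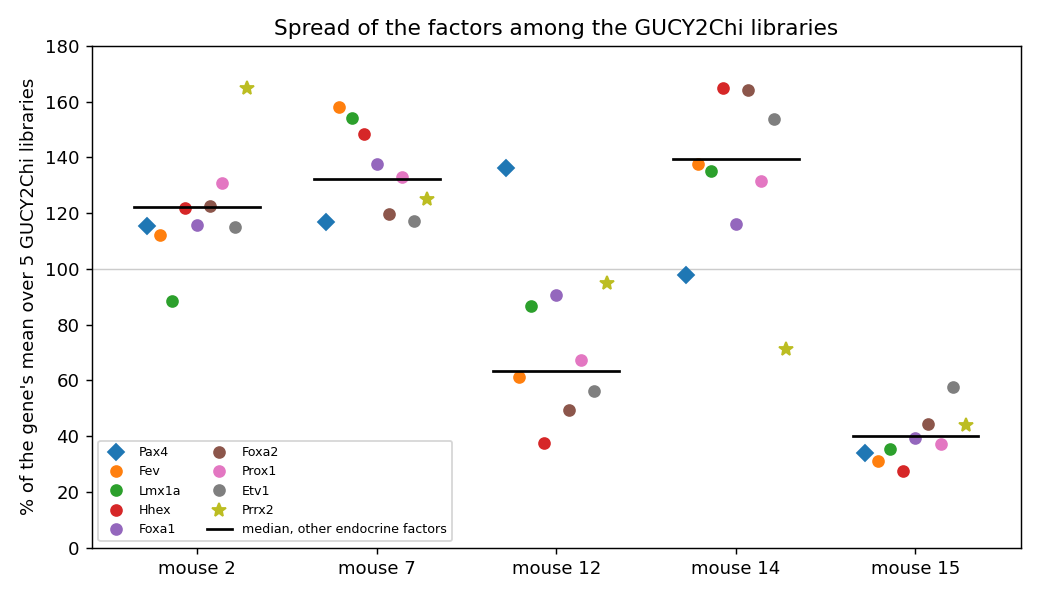
Level of each factor in the GUCY2Chi library of each mouse, as a percent of that factor's mean over the 5 GUCY2Chi libraries, with a black bar at the median of the 12 other endocrine factors called higher. All 9 factors lie between 27.6% and 57.7% in mouse 15, and in mouse 12 Pax4 (136%) lies far from Hhex (37.4%).

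Genes whose log2 levels ran closest to each factor over the 10 libraries were found by the root mean square difference of centered log2 cpm among 9749 genes. The contrast between the groups is part of this measure, and the closest genes share it with the factors. Fev was closest to Gfra3, a receptor for the neurotrophic factor artemin (0.55), and to Reg4 (0.59), and Prrx2 to Cyp2j12 (0.40) and Tph1 (0.48). Prrx2 had no GUCY2Cmed count, so its log2 levels there were set by the 0.5 count added before the log. Its closest genes thus rest on the values by which Prrx2 was chosen and on that added count, and show no link between the genes. Foxa1 was closest to Jag2, a Notch ligand (0.19), and Gch1 (0.27), Foxa2 to Arhgef38 (0.23) and Impdh1 (0.28), and Etv1 to Fxyd6 (0.27) and Ap3b2 (0.29). Pax4 and Prox1 had the same closest gene, the keratin gene Krt87 (0.34 and 0.45), with Il18r1 (0.44) and Arg1 (0.46) next. Hhex was closest to Apoa5 (0.55) and Kcnh6 (0.89), and Lmx1a to Pzp (0.89) and Slc38a11 (0.94).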

How the data were processed

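RNA was measured in 10 libraries of GUCY2Chi and GUCY2Cmed cells from 5 mice, 20000 cells each. The authors deposited raw counts of reads for every gene, made by the sequencing provider with the aligner STAR from paired-end reads. FPKM values, also deposited, divide counts by a transcript length and by the counts of the library, and the gene length, as deposited, is given in bases. The authors' own comparison, made with limma 3.40.6 and edgeR 3.26.8, holds test statistics, p-values before and after adjustment, and log2 fold changes and was not used, nor were 10 further columns of normalized values per library. The labels name mm9, but 99.9% of 37620 gene symbols in the table overlap their place on GRCm38.p6 and 9.66% of 28329 theirs on NCBIM37 (mm9), so positions are on GRCm38.

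The software was edgeR 4.0.16, DESeq2 1.42.0 and limma 3.58.1 under R 4.3.3, and matplotlib 3.10.9, scipy 1.17.1, numpy 2.4.6 and pandas 2.3.3 under Python 3.11.15. Genes over 0.5 cpm in at least 3 libraries entered edgeR's quasi-likelihood test, normalized by TMM and without a block, with Benjamini-Hochberg adjustment over all genes tested and a threshold of 0.01. The test was checked on simulated data with 200 changed genes, equally many of them 2-fold and 4-fold. There edgeR called 5 of the 2-fold and 59 of the 4-fold changes and 0 unchanged genes, so smaller differences can miss the threshold. Levels are TMM-normalized cpm, and the SD is over 5 mice. The factors and gene lists were chosen with earlier results of these data known, so counts over them describe and do not test them. Genes named are the 9 factors, the members of the lists described, and the 2 closest genes for each factor. These were the protein-coding genes of at least 5 cpm on average over the 10 libraries whose centered log2 cpm ran closest.

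The labels number the libraries of both groups 2, 7, 12, 14 and 15. Since both groups were sorted from the same 5 mice, these numbers were read as mice and pair the libraries. Deviations from the group means correlated over 15703 genes at -0.12, -0.26, 0.27, -0.13 and 0.08 within these pairs. Alternatives were limma-voom, voomWithQualityWeights, DESeq2, a replicate block for the mouse (edgeR, limma-voom), RLE or upper-quartile factors, library size only, a filter of at least 10 counts in every library or none, an adjusted p under 0.05, each library left out in turn, and, chosen after seeing the data, the libraries of mice 12 and 15 left out and the forebrain level as covariate. Promoter windows are from RefSeq (GRCm38.p6). The other experiments of the study were not analysed here. A few genes are left out of the text, and the other endocrine factors were counted without them.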

Additional observations from a re-analysis of the deposited data

How the results depend on the processing

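Over the 8 lineage factors, 176 of 178 values under the alternatives kept their direction and their side of the threshold. The other 2, both of Etv1, kept the direction with an edgeR adjusted p of 0.01251 (replicate block in edgeR) and 0.01098 (libraries of mice 12 and 15 left out), and the cause was not tested. The 178 include a value for each factor from the main fit read at an adjusted p under 0.05. That reading could not change for factors already under 0.01. Leaving out each library gave 8 lineage factors higher in all 10 fits, 12 other endocrine factors and 2 paralogs higher, and 0 to 1 paralogs lower. The replicate block in edgeR left 1 paralog higher. Prrx1 made 1 paralog lower with voomWithQualityWeights, without the GUCY2Chi library of mouse 15, and with mice 12 and 15 left out. With at least 10 counts in every library, 2 of the lineage factors and 6 of the other endocrine factors were tested, and 2 and 3 were higher. Over all genes, the counts were 1294 higher and 779 lower with the replicate block, 3367 and 2767 at an adjusted p under 0.05, 557 lower with library size only, which moved the median log2 fold change of all genes from 0.09 to 0.39, 2388 lower with voomWithQualityWeights and 2235 lower with DESeq2. Leaving out 1 library gave 1636 to 2534 higher and 512 to 1609 lower genes, with the fewest lower genes without the GUCY2Chi library of mouse 2. By FPKM, Etv1 had place 2, Lmx1a 4, Hhex 6 and Pax4 8. Mean levels under 1 cpm in GUCY2Cmed cells rest on few counts, which limits the precision of these fold changes. Counts per GUCY2Cmed library were 3 to 17 for Pax4, 0 to 13 for Lmx1a, 0 to 8 for Hhex and 1 to 9 for Prox1.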
